A study of Mus musculus with 5 samples.

Results

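Immediate early genes and stress-induced heat shock genes were followed in sorted pancreatic islet cells of the mouse. The list held 48 genes: 21 transcription factors, 5 phosphatases that feed back on MAPK signalling, 14 other early response genes and 8 heat shock genes. A gene was used when the array carried a probe set with its symbol alone, and the probe set with the highest mean signal was taken where there were several. This gave values for 47 of the 48 genes, among 19938 genes tested in all. Hspa1b was the gene left without a value of its own, since its probe set also carried the symbol of its near-identical neighbour Hspa1a. Cyr61 and Ctgf were listed under their present symbols, Ccn1 and Ccn2.

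The study sorted islet cells by flow cytometry into fractions labelled Flattop-positive and Flattop-negative, where Flattop is the product of Cfap126. Each array was hybridised with RNA pooled from 4 to 6 mice, and the comparison rested on 3 arrays of Flattop-positive and 2 of Flattop-negative cells. Both fractions came from untreated C57BL/6 mice aged 8 to 12 weeks that were heterozygous for Flattop (FVR/+), so the negative cells carried that allele too. Sex had not been determined, and no label said whether the pools of the fractions shared mice, so p-values measured only the spread between these pools.

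Immediate early genes are transcribed within minutes of a stimulus, without new protein synthesis, when kinases such as ERK, p38 and protein kinase A activate factors already bound at their promoters. In islet cells they respond to glucose, calcium and cAMP, and they are also switched on by the enzymatic digestion and warming that turn a tissue into single cells. Heat shock genes are driven by HSF1 when unfolded proteins draw chaperones away from it, and their products refold or hold those proteins.

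All values below are log2 signals, so a difference of 1 is a 2-fold difference. Across genes, arrays correlated at r = 0.846 for the Flattop-negative pair, the lowest pair, and at up to 0.984 for Flattop-positive replicates 1 and 2. Cfap126 stood at 6.07, 6.07 and 6.24 on the Flattop-positive arrays, against 5.52 and 5.44 on the Flattop-negative arrays, without overlap (0.64 ± 0.18, SE; limma adjusted p = 0.274). The 1027 olfactory receptor genes were taken as a mostly silent set. Their 95th percentile lay at 4.29, 4.44 and 4.45 in the Flattop-positive pools and at 4.75 and 4.86 in the Flattop-negative pools, and is called the floor here. Of the 47 early and heat shock genes, 39 lay above it on all arrays, against 10097 of all 19938 genes. A further 6148 of all genes lay below it on every array, so values given for all genes include many dim ones. Markers of β-cells summed to a linear signal of 23216, 19837 and 23307 in the Flattop-positive pools and 15889 and 17497 in the Flattop-negative pools, with all 8 markers measured.

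The early and heat shock genes differed more between pools of one fraction than between the fractions. Their median signal was 7.19, 6.10 and 8.80 in Flattop-positive replicates 1, 2 and 3, against 6.25 and 8.86 in Flattop-negative replicates 1 and 2. Over all genes tested the medians were 5.04, 5.05 and 5.12, against 5.05 and 5.23. Flattop-positive replicate 3 and Flattop-negative replicate 2 were thus the high arrays for these genes, replicate 2 of the positive and replicate 1 of the negative fraction were the low ones, and Flattop-positive replicate 1 lay between. In these bulk samples, fewer cells that use a gene and less RNA of it per cell cannot be told apart.

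**Figure D1:**
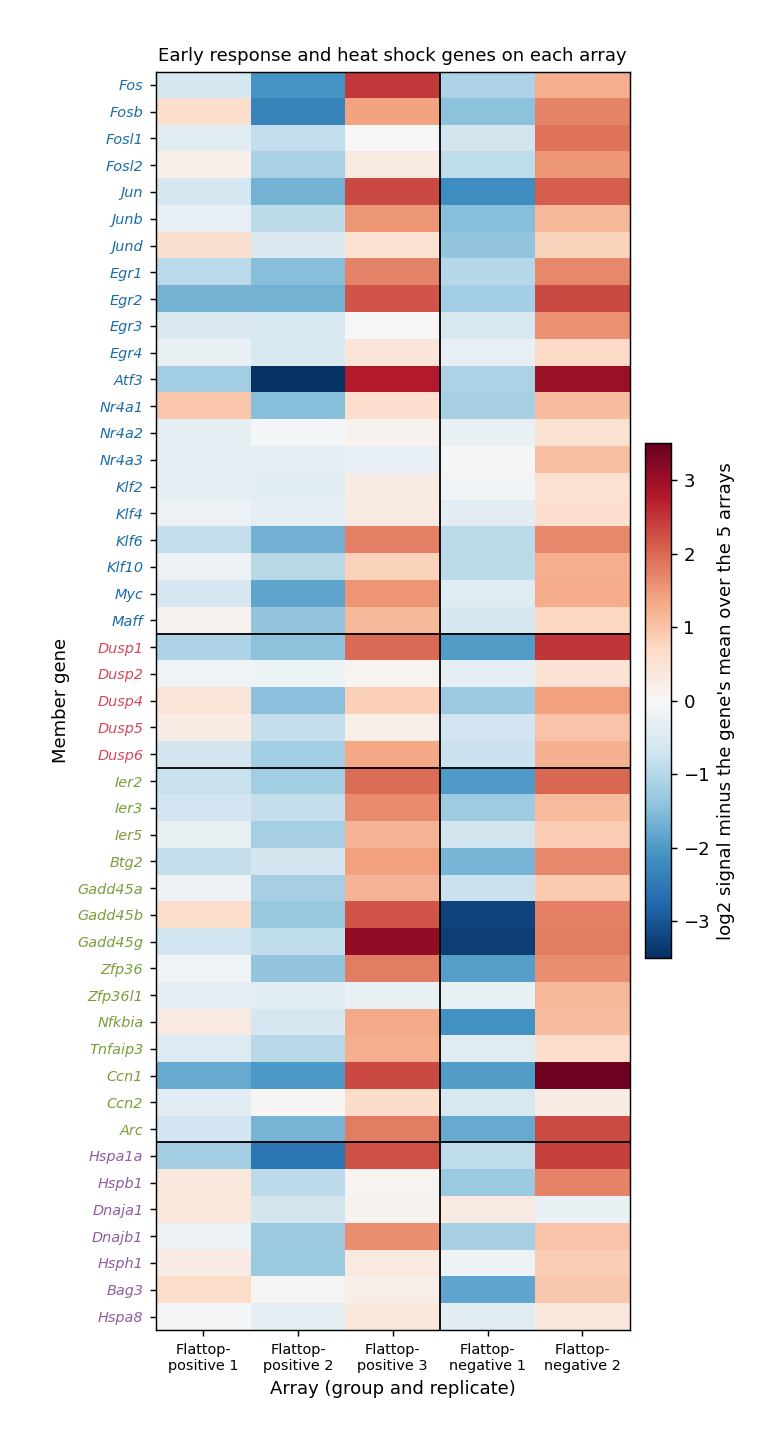
Heat map of the 47 genes (rows, by class) on the 5 arrays (columns, Flattop-positive first), coloured by log2 signal minus the gene's mean over the arrays. The columns of Flattop-positive replicate 3 and Flattop-negative replicate 2 are mostly above the mean, and those of Flattop-positive replicate 2 and Flattop-negative replicate 1 mostly below it.

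Within the fractions, 41 of the 47 genes had their highest positive signal in replicate 3 and a higher signal in negative replicate 2 than in negative replicate 1, a pattern met by 21.9% of all genes. The exceptions, with positive replicate 1 above replicate 3, were Jund, Nr4a1, Dusp5, Hspb1, Dnaja1 and Bag3. Flattop-positive replicate 3 was at least 2-fold above replicate 1 for 26 genes (3.03% of all genes) and above replicate 2 for 34 (4.07%). Replicate 1 exceeded replicate 2 at least 2-fold for 18 (1.17%). In the Flattop-negative pair, replicate 2 was at least 2-fold above replicate 1 for 39 genes (10.4%). Counted at any size, replicate 3 was above replicate 1 for 41 members (51.7% of all genes) and above replicate 2 for 47 (47.4%), replicate 1 was above replicate 2 for 42 (46.7%), and negative replicate 2 was above negative replicate 1 for 46 (54.5%). In each of these pairs of arrays, 0 members were 2-fold lower, against 2.94%, 2.55%, 0.231% and 10.9% of all genes.

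**Figure D2:**
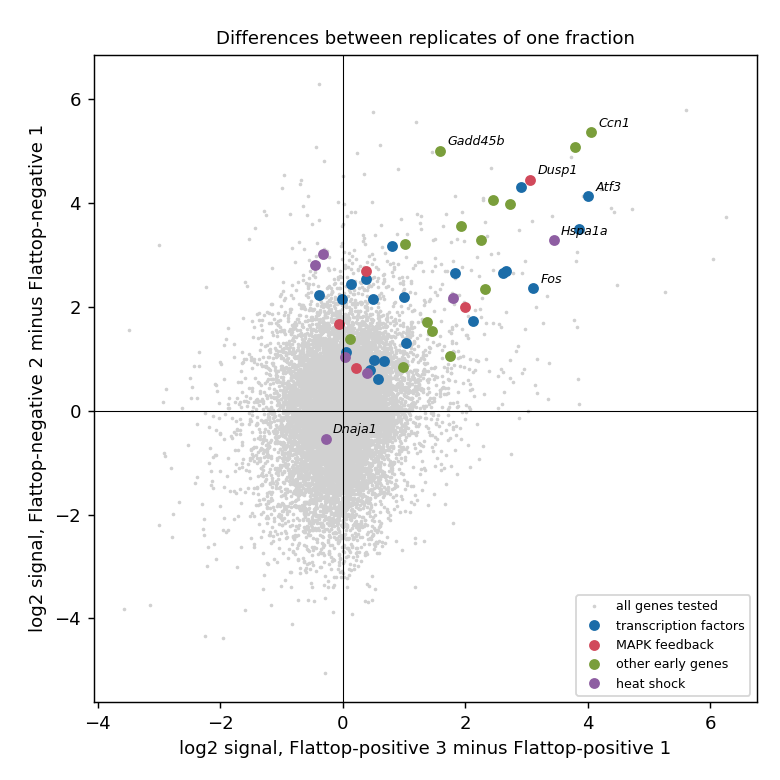
Each point is a gene, with the log2 difference of Flattop-positive replicate 3 minus replicate 1 on the x axis and of Flattop-negative replicate 2 minus replicate 1 on the y axis. The 47 members (coloured by class) lie mostly above and to the right of the cloud of all genes (grey), and Dnaja1 is the one below 0 on the y axis.

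Expressed as the SD between pools of one fraction, combined over both fractions, the members had a median of 1.36 (0.355 to 3.08), against 0.297 for all genes. Of the 47, 34 lay above the 95th percentile of all genes (0.914), which 5.0% of genes exceed by definition. Among the 50 genes with the widest spread on these arrays, 13 were members, led by Atf3 (rank 3), Ccn1 (rank 4), Gadd45g (rank 6) and Gadd45b (rank 14).

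**Figure D3:**
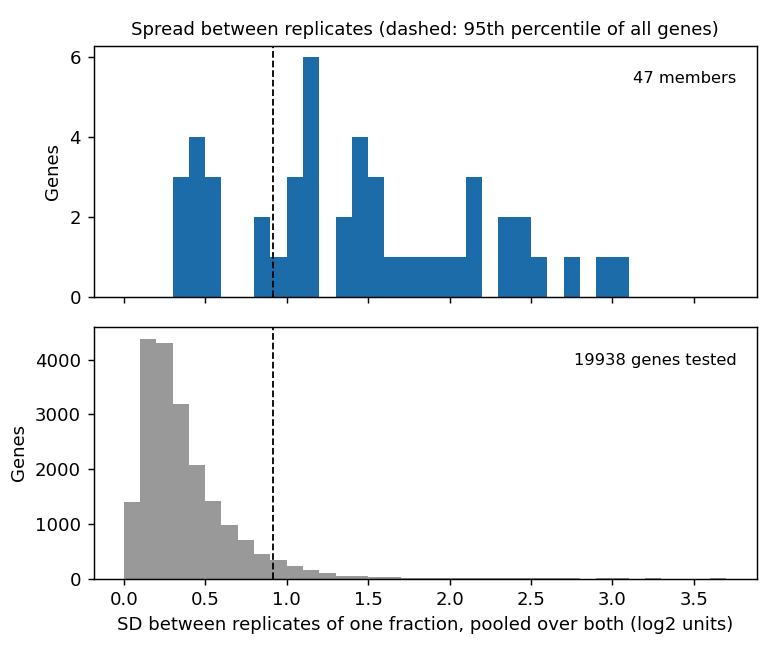
Histograms of the SD between replicate pools, combined over both fractions (log2 units), for the 47 members above and the 19938 genes tested below, with the 95th percentile of all genes dashed. Of the members, 34 lie to the right of the dashed line.

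Promoters of 5 members with wide spread, and of Hsph1 for its heat shock element, are shown because the signals that act on early and heat shock genes meet there. RefSeq windows (GRCm38.p6) of 300 bases, from 250 before to 50 after the annotated start, were at hand for 38 of the 48 listed genes, Hspa1b included (49 windows, as some genes have several starts). Capitals mark, on either strand, the cAMP response element TGACGTCA or its core TGACG, the AP-1 site TGANTCA, the CArG box of serum response factor, TATAAA, and a heat shock element searched as 3 alternating GAA and TTC units with any 2 bases between units. Each window is written in the direction of its gene.
Fos, chr12:85473640-85473939, plus strand: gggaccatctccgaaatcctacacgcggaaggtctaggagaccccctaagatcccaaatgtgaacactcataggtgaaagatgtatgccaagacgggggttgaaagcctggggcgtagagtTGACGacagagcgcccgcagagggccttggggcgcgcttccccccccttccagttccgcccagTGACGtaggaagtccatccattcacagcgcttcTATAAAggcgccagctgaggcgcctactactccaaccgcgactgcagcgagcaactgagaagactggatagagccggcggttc
Egr2, chr10:67537619-67537918, plus strand: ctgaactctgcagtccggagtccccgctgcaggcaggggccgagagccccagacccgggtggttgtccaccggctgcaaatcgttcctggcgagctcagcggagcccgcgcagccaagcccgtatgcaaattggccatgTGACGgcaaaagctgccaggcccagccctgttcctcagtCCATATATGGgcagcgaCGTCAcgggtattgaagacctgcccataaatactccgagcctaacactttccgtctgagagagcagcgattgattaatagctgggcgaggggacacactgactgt
Atf3, chr1:191183284-191183583, minus strand: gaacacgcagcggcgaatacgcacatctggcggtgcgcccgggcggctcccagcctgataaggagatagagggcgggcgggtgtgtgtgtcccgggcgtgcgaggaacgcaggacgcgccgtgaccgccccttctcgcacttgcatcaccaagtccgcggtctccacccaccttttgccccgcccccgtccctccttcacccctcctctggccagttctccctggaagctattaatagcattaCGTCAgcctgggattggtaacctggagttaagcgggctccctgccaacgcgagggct
Ccn1, chr3:145649936-145650235, minus strand: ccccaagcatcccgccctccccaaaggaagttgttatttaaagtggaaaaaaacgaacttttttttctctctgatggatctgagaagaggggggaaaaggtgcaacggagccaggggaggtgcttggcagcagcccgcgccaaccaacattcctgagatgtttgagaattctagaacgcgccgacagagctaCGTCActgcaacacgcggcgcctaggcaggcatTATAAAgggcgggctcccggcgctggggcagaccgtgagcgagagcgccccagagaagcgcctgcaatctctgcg
Dusp1, chr17:26508423-26508722, minus strand: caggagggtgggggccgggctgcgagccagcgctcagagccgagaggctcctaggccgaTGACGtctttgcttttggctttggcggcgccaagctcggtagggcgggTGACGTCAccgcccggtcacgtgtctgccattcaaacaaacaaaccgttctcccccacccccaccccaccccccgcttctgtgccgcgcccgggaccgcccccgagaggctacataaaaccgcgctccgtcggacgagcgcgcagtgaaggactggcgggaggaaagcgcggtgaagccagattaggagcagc
Hsph1, chr5:149636287-149636586, minus strand: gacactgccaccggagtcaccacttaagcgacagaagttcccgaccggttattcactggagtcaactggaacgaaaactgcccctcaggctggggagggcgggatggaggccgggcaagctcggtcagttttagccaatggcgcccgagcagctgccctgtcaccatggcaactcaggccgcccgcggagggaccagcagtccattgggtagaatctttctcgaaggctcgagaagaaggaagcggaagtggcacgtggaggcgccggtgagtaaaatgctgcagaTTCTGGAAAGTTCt
In these windows the core TGACG occurred in Fos, Egr2, Atf3, Ccn1 and Dusp1, the full element in Dusp1, a CArG box in Egr2, and TATAAA in Fos and Ccn1. The heat shock element was found in Hsph1. The windows shown were not taken in order of spread. Gadd45g, Gadd45b, Jun and Hspa1a had a wider spread than Egr2 and Fos, and their windows held no TGACG.

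Over all windows of listed genes, TGACG was present in 24 of 49 (49.0%), against 20.8% of the 32851 windows in the table. It was found for 12 of the 16 transcription factor genes that had a window. The full TGACGTCA, which contains the core on both strands, was in 6.12% of these windows and 1.79% of all windows, for Maff, Dusp1 and Btg2. The CArG box was in 12.2% and 1.63%, but several of the listed windows with it belonged to Egr2. By gene it was found for 3 of 38, namely Egr2, Dusp5 and Zfp36. The heat shock element was in 4.08% and 0.603%, both listed windows belonging to Hsph1. TATAAA was in 18.4% and 13.6%, and TGANTCA in 6.12% and 7.81%. Such matches describe the letters only, and windows of one gene overlap.

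The transcription factors had class medians of 7.11, 5.88 and 8.51 in the Flattop-positive pools, against 6.53 and 8.57 in the Flattop-negative pools. Their mean over pools was 7.17 ± 1.32 (SD, n = 3) in the positive and 7.55 ± 1.44 (SD, n = 2) in the negative fraction. Of the 21 genes, 19 were highest in positive replicate 3 among the positive pools and higher in negative replicate 2 than in negative replicate 1.

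**Figure D4:**
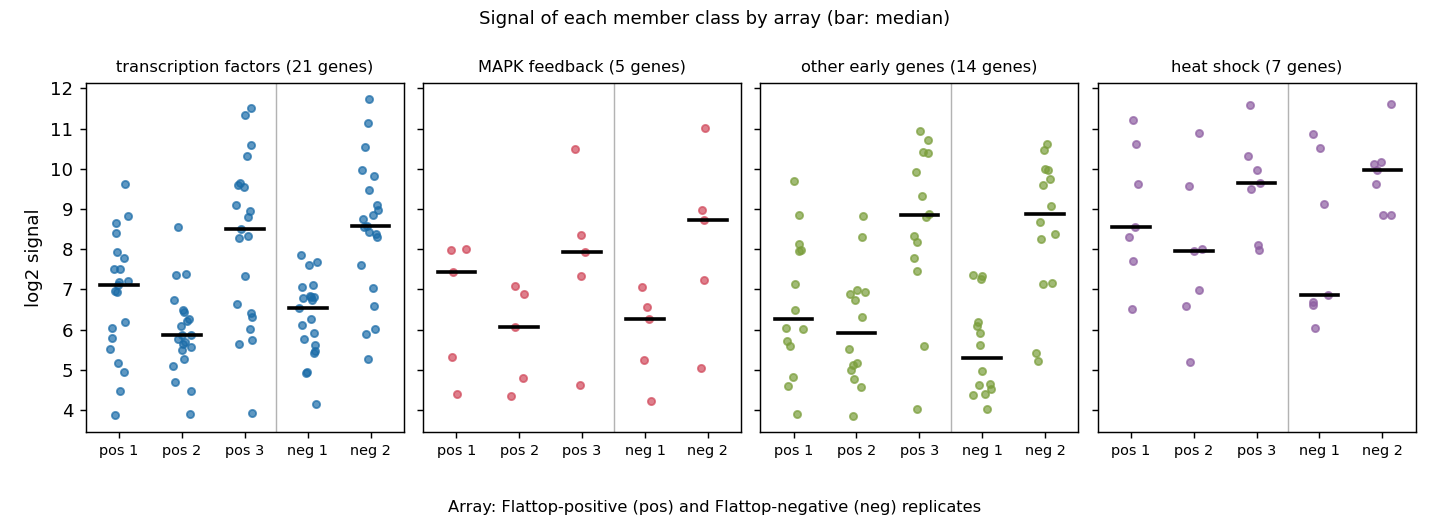
Median log2 signal of each class on each array, Flattop-positive replicates left of Flattop-negative replicates, with the single genes as points. In each of the 4 classes the median is highest among the positive arrays in replicate 3 and higher in negative replicate 2 than in negative replicate 1.

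Fos, which pairs with Jun proteins to form AP-1, stood at 7.19, 5.77 and 10.31 on the Flattop-positive arrays, against 6.74 and 9.099 on the Flattop-negative arrays. Its highest and its lowest value both came from the Flattop-positive fraction, and the groups overlapped (difference -0.16 ± 1.44, SE; adjusted p = 0.967). Fosb, a relative of Fos, had 8.84, 5.88 and 9.64 in Flattop-positive pools and 6.803 and 9.97 in Flattop-negative pools. Jun, the partner in AP-1, had 8.41, 7.37 and 11.33 in positive replicates 1, 2 and 3, against 6.83 and 11.14 in negative replicates 1 and 2, and again positive replicate 3 and negative replicate 2 stood far above the rest. Junb read 7.11, 6.48 and 8.95 in Flattop-positive pools and 5.92 and 8.57 in Flattop-negative pools. Jund, the family member with the steadiest expression in most tissues, had 9.62, 8.56 and 9.61 in Flattop-positive pools and 7.69 and 9.83 in Flattop-negative pools, and its lowest array was negative replicate 1.

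Fosl1 and Fosl2, whose products also pair with Jun proteins, were highest in Flattop-negative replicate 2. Fosl1 had 6.04, 5.57 and 6.42 in Flattop-positive pools and 5.78 and 8.31 in Flattop-negative pools, and Fosl2 had 7.204, 5.88 and 7.33 in Flattop-positive pools and 6.12 and 8.56 in Flattop-negative pools. For Fosl1 the difference between fractions was -1.04 ± 0.75 (SE; adjusted p = 0.545), and it rested on that single pool, since without it the value was 0.23.

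The Egr zinc finger factors are induced by serum response factor and its ERK-activated partners. Egr1 stood at 7.93, 7.36 and 10.59 on the Flattop-positive arrays, against 7.86 and 10.55 on the Flattop-negative arrays. Egr2 had 4.47, 4.48 and 8.32 in positive replicates 1, 2 and 3, against 4.95 and 8.44 in negative replicates 1 and 2, near the floor in 3 pools and well above it in the other two. Egr3 was at 5.52, 5.498 and 6.01 in Flattop-positive pools and 5.46 and 7.61 in Flattop-negative pools and Egr4 at 4.95, 4.69 and 5.64 in Flattop-positive pools and 4.92 and 5.88 in Flattop-negative pools. All 4 genes had their highest signals in positive replicate 3 among the positive pools and in negative replicate 2 among the negative pools.

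Atf3, a stress-induced member of the ATF/CREB family, had the widest spread of the list, at 7.505, 5.27 and 11.51 on the Flattop-positive arrays, against 7.61 and 11.74 on the Flattop-negative arrays. The difference between positive replicates 3 and 2 was 6.24 log2 units, and that between negative replicates 2 and 1 was 4.13. Against this, the difference between the fractions was -1.58 ± 2.08 (SE; adjusted p = 0.728). Myc, a regulator of growth genes, read 6.96, 5.69 and 9.09 in Flattop-positive pools and 7.11 and 8.85 in Flattop-negative pools, and Maff, a small Maf factor, 7.77, 6.26 and 8.804 in Flattop-positive pools and 7.07 and 8.37 in Flattop-negative pools.

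The Nr4a orphan nuclear receptors, which in β-cells follow cAMP and calcium signals, did not share one pattern. Nr4a1 had 8.66, 6.21 and 8.28 in Flattop-positive pools and 6.53 and 8.76 in Flattop-negative pools, with positive replicate 1 above replicate 3. Nr4a2 spanned less than 1 log2 unit, at 6.19, 6.45 and 6.64 in Flattop-positive pools and 6.25 and 7.04 in Flattop-negative pools. Nr4a3 stood at 3.87, 3.895 and 3.92 on the Flattop-positive arrays, against 4.15 and 5.28 on the Flattop-negative arrays, the one member whose groups did not overlap. It lay below the floor on the 4 arrays other than negative replicate 2, so the size of its difference (-0.82 ± 0.36, SE; adjusted p = 0.387) is uncertain, and without that array it was -0.25.

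Among the Krüppel-like factors, Klf6 was the most variable, at 6.93, 6.097 and 9.54 on the Flattop-positive arrays, against 6.81 and 9.46 on the Flattop-negative arrays. Klf10, which is induced by TGF-β, had 7.51, 6.73 and 8.51 in Flattop-positive pools and 6.79 and 8.99 in Flattop-negative pools. Klf4, known from pluripotent cells, had 5.798, 5.65 and 6.31 in Flattop-positive pools and 5.61 and 6.58 in Flattop-negative pools, and Klf2, known from endothelium, had 5.17, 5.11 and 5.75 in Flattop-positive pools and 5.41 and 6.02 in Flattop-negative pools. The 5 arrays of Klf2 lay within 1 log2 unit, and so did those of Klf4.

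The dual-specificity phosphatases are transcribed on MAPK activation and remove the activating phosphates from ERK, JNK or p38. Their class medians were 7.42, 6.06 and 7.94 in the Flattop-positive pools, against 6.27 and 8.74 in the Flattop-negative pools, or 7.14 ± 0.97 (SD, n = 3) and 7.503 ± 1.75 (SD, n = 2) as means. Dusp1 stood at 7.42, 7.09 and 10.49 on the Flattop-positive arrays, against 6.56 and 11.01 on the Flattop-negative arrays, a gap of 4.44 log2 units inside the negative fraction. Dusp6, the cytoplasmic phosphatase of ERK, had 5.33, 4.79 and 7.33 in Flattop-positive pools and 5.24 and 7.24 in Flattop-negative pools. Dusp4 had 7.98, 6.06 and 8.36 in Flattop-positive pools and 6.27 and 8.96 in Flattop-negative pools, and here negative replicate 2 was the highest of all arrays while positive replicate 1 approached replicate 3.

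Dusp5 read 8.002, 6.89 and 7.94 in Flattop-positive pools and 7.07 and 8.74 in Flattop-negative pools, with positive replicates 1 and 3 close together. Dusp2 was near the floor, at 4.41, 4.36 and 4.63 in Flattop-positive pools and 4.22 and 5.04 in Flattop-negative pools, and below it in positive replicate 2 and negative replicate 1. All 5 phosphatases had a mean that was lower in the Flattop-positive fraction, by 0.15 to 0.45 log2 units, and the groups of each overlapped.

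The 14 other early genes had class medians of 6.26, 5.92 and 8.85 in the Flattop-positive pools, against 5.29 and 8.87 in the Flattop-negative pools, or 7.01 ± 1.602 (SD, n = 3) and 7.08 ± 2.53 (SD, n = 2) as means. All 14 met the pattern of high positive replicate 3 and high negative replicate 2, and 12 exceeded the 95th percentile of spread.

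The stress sensors of the Gadd45 family, which bind the MAPK kinase kinase MEKK4, differed in how far they went. Gadd45g stood at 7.14, 6.93 and 10.93 on the Flattop-positive arrays, against 4.52 and 9.603 on the Flattop-negative arrays, and Gadd45b at 8.84, 6.89 and 10.43 in positive replicates 1, 2 and 3, against 4.97 and 9.97 in negative replicates 1 and 2. For both, negative replicate 1 was the lowest array by over 1 log2 unit, below the floor for Gadd45g. The differences of the fractions, 1.27 ± 1.87 (SE; adjusted p = 0.757) for Gadd45g and 1.25 ± 1.69 (SE; adjusted p = 0.733) for Gadd45b, were the largest positive ones of the list and smaller than their SEs. Gadd45a, the p53 target of the family, had 7.96, 6.99 and 9.33 in Flattop-positive pools and 7.36 and 9.07 in Flattop-negative pools.

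The matricellular genes Ccn1 and Ccn2 are targets of YAP and serum response factor. Ccn1 stood at 4.82, 4.58 and 8.88 on the Flattop-positive arrays, against 4.64 and 10.002 on the Flattop-negative arrays, and the 3 lower arrays lay within 1 log2 unit of each other, below the floor in negative replicate 1. Its difference between negative replicates was 5.36, the widest of the list. Ccn2 had only 4.597, 4.98 and 5.59 in Flattop-positive pools and 4.38 and 5.23 in Flattop-negative pools. It too lay below the floor in negative replicate 1.

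Ier2, a nuclear protein of the early response, stood at 5.596, 5.16 and 8.33 on the Flattop-positive arrays, against 4.397 and 8.37 on the Flattop-negative arrays, and Ier3, which modulates ERK signalling and cell survival, at 6.48, 6.31 and 8.81 in Flattop-positive pools and 5.91 and 8.26 in Flattop-negative pools. Ier5, which acts on HSF1, read 6.01, 5.11 and 7.47 in Flattop-positive pools and 5.62 and 7.16 in Flattop-negative pools. Btg2, an antiproliferative partner of the mRNA deadenylase complex, had 8.12, 8.29 and 10.38 in Flattop-positive pools and 7.33 and 10.62 in Flattop-negative pools. In all 4 the high arrays were positive replicate 3 and negative replicate 2. Arc, known from active synapses, had 5.72, 4.76 and 8.17 in positive replicates 1, 2 and 3, against 4.62 and 8.67 in negative replicates 1 and 2, with the same arrays high. Ier2 and Arc lay below the floor in negative replicate 1, so the size of their gaps between the negative pools is uncertain.

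Zfp36, which brings mRNAs with AU-rich elements to decay, stood at 7.97, 6.72 and 9.91 on the Flattop-positive arrays, against 6.19 and 9.74 on the Flattop-negative arrays. Its relative Zfp36l1 had 3.905, 3.86 and 4.02 in Flattop-positive pools and 4.02 and 5.41 in Flattop-negative pools, below the floor on the 4 arrays other than negative replicate 2. Nfkbia, the NF-κB inhibitor that NF-κB itself induces, had 9.702, 8.82 and 10.73 in Flattop-positive pools and 7.27 and 10.47 in Flattop-negative pools, where negative replicate 1 was the lowest array. Tnfaip3, the ubiquitin-editing inhibitor A20, read 6.03, 5.53 and 7.78 in Flattop-positive pools and 6.09 and 7.14 in Flattop-negative pools.

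The 7 measured heat shock genes had class medians of 8.56, 7.95 and 9.66 in the Flattop-positive pools, against 6.85 and 9.98 in the Flattop-negative pools. Their mean over pools was 8.72 ± 0.86 (SD, n = 3) in the positive and 8.42 ± 2.21 (SD, n = 2) in the negative fraction. Of the 7, 4 were highest in positive replicate 3 among the positive pools and higher in negative replicate 2 than in negative replicate 1. Hspa1a, the stress-induced HSP70, stood at 6.52, 5.19 and 9.96 on the Flattop-positive arrays, against 6.85 and 10.13 on the Flattop-negative arrays. Its difference between fractions was -1.27 ± 1.63 (SE; adjusted p = 0.721). The probe set shared with Hspa1b, left out of the counts, read 6.94, 5.77 and 10.67 in Flattop-positive pools and 5.18 and 11.21 in Flattop-negative pools.

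Dnajb1, the HSP40 that delivers clients to HSP70, had 7.704, 6.59 and 9.500 in Flattop-positive pools and 6.697 and 8.86 in Flattop-negative pools, and Hsph1, the nucleotide exchange factor HSP110, had 9.61, 8.01 and 9.66 in Flattop-positive pools and 9.13 and 10.17 in Flattop-negative pools. Both had their lowest positive signal in replicate 2, and positive replicates 3 and 1 of Hsph1 differed by 0.04. Bag3, which links HSP70 to autophagy, was at 8.56, 7.95 and 8.11 in positive replicates 1, 2 and 3, against 6.05 and 8.86 in negative replicates 1 and 2, so the lowest array by almost 2 log2 units was negative replicate 1. Hspb1, the small heat shock protein HSP27, had 8.31, 6.98 and 7.99 in Flattop-positive pools and 6.61 and 9.63 in Flattop-negative pools, and a further probe set of Hspb1 gave the same order of arrays.

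Of the heat shock genes, by the probe sets used, Hspa8 and Dnaja1 varied least between pools of one fraction (SD 0.411 and 0.493). Hspa8, the constitutive HSC70, stood at 11.203, 10.903 and 11.597 on the Flattop-positive arrays, against 10.87 and 11.601 on the Flattop-negative arrays, a difference of -0.003 ± 0.33 (SE; adjusted p = 0.997). Of the 3 Hspa8 probe sets with that symbol alone, another had the same arrays high. The third ran the other way, at 11.58, 11.18 and 9.07 in Flattop-positive pools and 11.05 and 8.66 in Flattop-negative pools. Its difference between fractions was 0.75. The direction, the spread between pools and the difference of Hspa8 thus depend on the probe set. Dnaja1, an HSP40 with a farnesyl anchor, had 10.61, 9.56 and 10.33 in Flattop-positive pools and 10.52 and 9.98 in Flattop-negative pools, and was the one member lower in negative replicate 2 than in negative replicate 1. A second, dimmer probe set of Dnaja1 had 9.22, 8.65 and 8.88 in Flattop-positive pools and 9.82 and 9.325 in Flattop-negative pools, lower in the positive fraction without overlap. A probe set shared with Mir207, left out of the counts, read 8.71, 8.81 and 8.77 in Flattop-positive pools and 7.76 and 9.80 in Flattop-negative pools. It was higher in negative replicate 2, so the direction of Dnaja1 between the negative pools depends on the probe set.

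Set between the fractions, 0 of the 47 members reached limma's adjusted threshold of 0.05 (smallest adjusted p = 0.387), and 0.0% of all genes did. At an unadjusted p under 0.05 there were 0 members, against 13.8% of all genes (8.48% higher and 5.37% lower). The groups did not overlap for 1 of the 47, Nr4a3, against 34.7% of all genes. A higher mean in Flattop-positive cells was seen for 12 members and a lower one for 35, while 40.8% of all genes were higher. The median difference was -0.19 for the members, -0.31 for transcription factors, -0.29 for the phosphatases, -0.03 for the other early genes and -0.08 for heat shock genes, beside -0.10 for all genes. For heat shock genes the difference between the mean class medians had the other sign (0.31). A p that misses the threshold does not show that the fractions are alike, and the SEs of single members reached 2.08 log2 units.

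**Figure D5:**
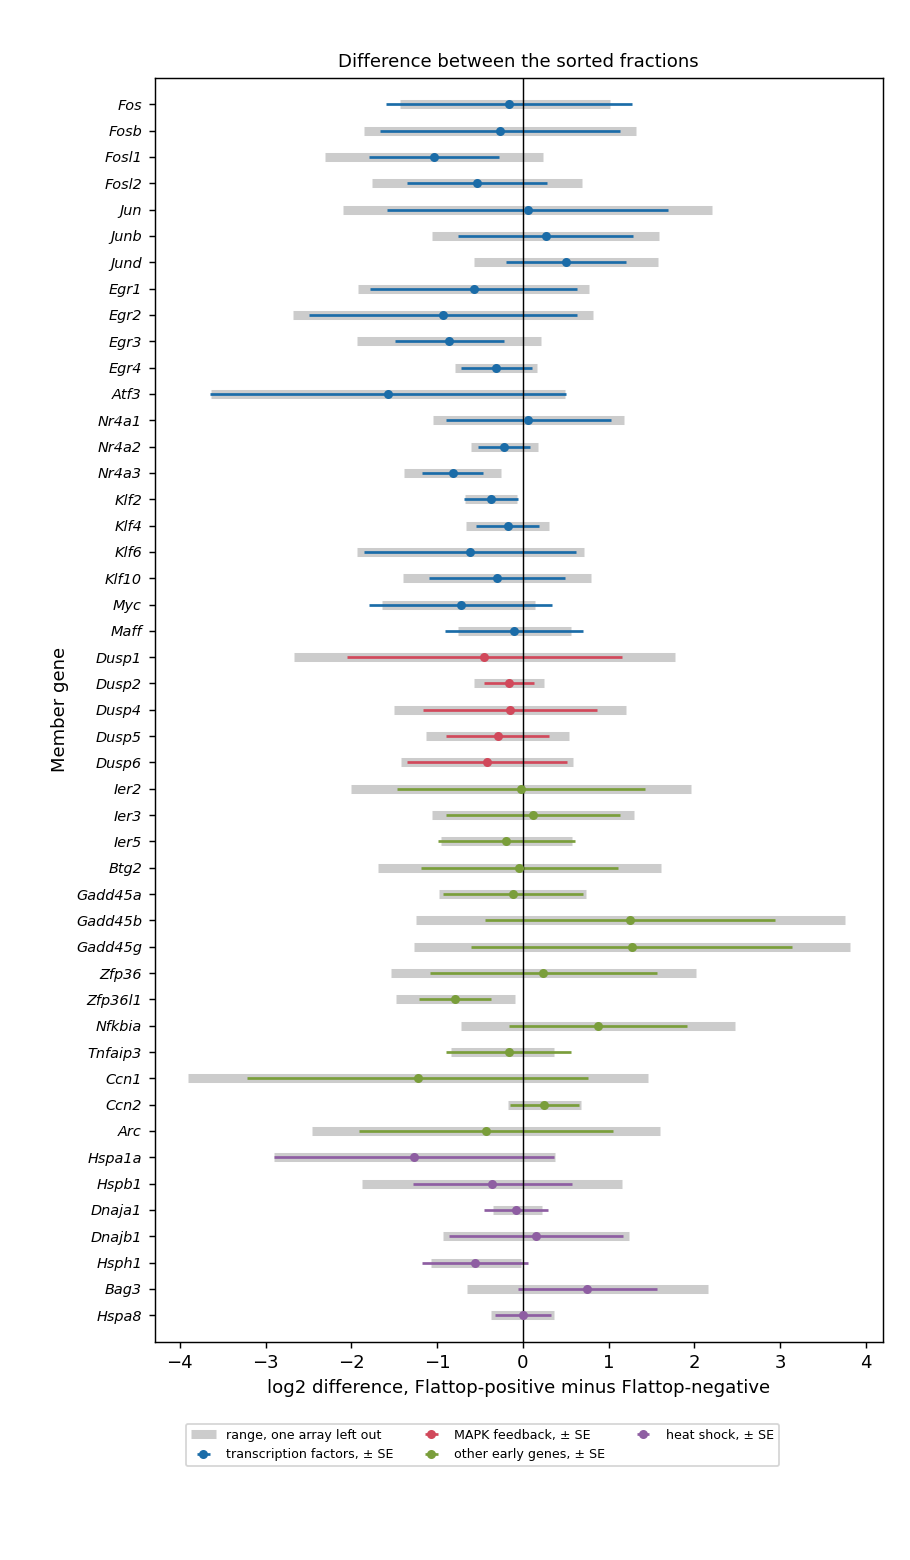
log2 difference of each gene, Flattop-positive minus Flattop-negative, with its SE from limma (coloured by class) and the range of the difference when each array is left out in turn (grey bars). For 43 of the 47 genes the grey bar crosses 0.

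Which arrays entered decided the sign. Without Flattop-negative replicate 1 the median difference of the members was -1.34, 46 of 47 were lower and 6 of them (Fosl1, Egr3, Nr4a3, Dusp2, Zfp36l1 and Hspb1) had an unadjusted p under 0.05, where 13.7% of all genes were lower by that rule. Without Flattop-negative replicate 2 the median was 0.74, 42 were higher and 3 (Jund, Nfkbia and Bag3) had an unadjusted p under 0.05, against 13.4% of all genes. Leaving out Flattop-positive replicate 3 gave -0.765 and leaving out replicate 2 gave 0.17, with 0 members at an unadjusted p under 0.05 in limma each time. In none of these fits did a member pass the adjusted threshold (smallest adjusted p = 0.0557). A lone remaining negative array was assumed to vary like the positive ones.

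Some other measures moved with the same arrays. Xist, the RNA of the inactive X chromosome in females, stood at 3.58, 3.76 and 7.81 on the Flattop-positive arrays, against 4.36 and 8.62 on the Flattop-negative arrays, so the arrays high in early genes were the ones high in Xist, and the sex mix of a pool cannot be told apart from anything else those pools share. Between the 2 arrays with high Xist, positive replicate 3 and negative replicate 2, 19 members were higher and 28 lower in the positive array (median -0.22). Between positive replicates 1 and 2, as a mean, and negative replicate 1, 30 were higher and 17 lower (median 0.16). In that second comparison 5 members had an unadjusted p under 0.05, all higher, against 15.9% of all genes, and the smallest adjusted p in limma was 0.094. These p-values rest on a single negative array and 1 residual degree of freedom, in a split chosen after seeing the data. With all arrays and Xist above 6 as a block, 24 members were higher and 23 lower, and 2 (Ier3 and Gadd45g) were higher at an unadjusted p under 0.05, against 10.1% of all genes.

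Within each fraction, summed markers of α-cells, of δ- and PP-cells, of stellate and of endothelial cells were also highest in positive replicate 3 and negative replicate 2. The β-cell sums were highest there too, though positive replicates 1 and 3 were close (23216 and 23307). The median log2 signal of the 8 β-cell markers ran otherwise, at 10.21, 9.95 and 10.08 in the positive and 9.06 and 8.46 in the negative fraction. Only 2 of the 8 were highest in positive replicate 3 among the positive pools and higher in negative replicate 2 than in negative replicate 1. In the negative fraction the β-cell sums were 15889 and 17497. Macrophage and duct markers were not highest on both arrays, and acinar markers tied in positive replicates 2 and 3. Those of α-cells, with 3 of 5 measured, summed to a linear signal of 12332, 12397 and 14725 in the Flattop-positive pools and 9394 and 17374 in the Flattop-negative pools. Duct markers, 4 of 5 measured, gave 697, 1041 and 628 in the positive and 179 and 520 in the negative fraction, with positive replicate 3 the lowest of its fraction. Macrophage markers, all 10 measured, summed to a linear signal of 419, 379 and 307 in the Flattop-positive pools and 266 and 1116 in the Flattop-negative pools. The sum was lowest in positive replicate 3 among the positive pools, while the median log2 signal of the 10 markers was highest there, at 4.53, 4.43 and 4.78 in the positive and 4.57 and 5.56 in the negative fraction. The sum weighs the brighter C1qa and Cd68, which among the positive pools were lowest in replicate 3, at 6.02 and 5.21. Of the 10 markers, 6 were highest in positive replicate 3 among the positive pools and higher in negative replicate 2, and all 10 were higher in negative replicate 2 than in negative replicate 1. Lyz2, the macrophage lysozyme, stood at 4.09, 3.35 and 4.58 in Flattop-positive pools and 3.66 and 9.41 in Flattop-negative pools, whereas Ptprc, the leukocyte antigen CD45, lay below the floor on all 5 arrays.

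Stellate markers, 8 of 8 measured, summed to 186, 190 and 257 in Flattop-positive pools and 225 and 725 in Flattop-negative pools, with Vim at 5.02, 4.64 and 5.64 in Flattop-positive pools and 5.02 and 8.59 in Flattop-negative pools. Acinar markers, 6 of 9 measured, gave 118, 140 and 140 in the positive and 175 and 355 in the negative fraction. Endothelial markers, 6 of 6 measured, gave 81, 85 and 89 in the positive and 91 and 124 in the negative fraction, and 5 or 6 of them lay below the floor on each array. Markers of δ- and PP-cells, 3 of 3 measured, gave 10664, 12079 and 18150 in the positive and 791 and 22050 in the negative fraction, the lowest value falling on negative replicate 1, which was also low in early genes. The part of any of these cells in the signals of the early genes was not tested.

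Other genes of the same pathways, taken from lists chosen with earlier results of these data known, were set beside the members. The kinases and factors upstream of the early genes (17 of 23 measured) had a median spread between pools of 0.457, and 1 of 17 exceeded the 95th percentile. That gene, named after its value was seen, was Srf, serum response factor, at 9.39, 7.07 and 8.76 in Flattop-positive pools and 6.52 and 9.63 in Flattop-negative pools. Between fractions, 0 passed the adjusted threshold and 1 was higher at an unadjusted p under 0.05 (8.48% of all genes). It was Map2k2, the ERK kinase MEK2, at 7.37, 7.099 and 7.31 in Flattop-positive pools and 5.56 and 6.76 in Flattop-negative pools (difference 1.099 ± 0.38, SE; adjusted p = 0.317; 0.50 without negative replicate 1 and 1.70 without negative replicate 2).

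Other feedback inhibitors of MAPK signalling (11 of 11 measured) had a median spread of 0.765 and 0 genes at an unadjusted p under 0.05 in limma. Spry4, a Sprouty inhibitor of ERK signalling, had 5.33, 4.98 and 5.24 in Flattop-positive pools and 4.63 and 4.81 in Flattop-negative pools, and Spred2, its relative, had 8.02, 7.07 and 7.44 in Flattop-positive pools and 8.12 and 8.301 in Flattop-negative pools. They were the 2 of the 11 without overlap (34.7% of all genes). Both Flattop-negative values of Spry4 lay below the floor, so no size is given for it, and Spred2 had a difference of -0.699 ± 0.32 (SE; adjusted p = 0.402).

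Other activity-induced genes (22 of 22) had a median spread of 0.897, and 11 exceeded the 95th percentile. Plk3, an early response kinase, had groups without overlap, at 8.63, 8.29 and 8.12 on the Flattop-positive arrays, against 5.92 and 6.55 on the Flattop-negative arrays (difference 2.11 ± 0.28, SE; adjusted p = 0.198). NF-κB pathway genes (13 of 15) had a median spread of 0.805, with 0 at an unadjusted p under 0.05 in limma, and a median difference of 0.14.

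Cytosolic chaperones and HSF genes outside the list (29 of 31 measured) had a median spread of 0.380, and 3 of 29 exceeded the 95th percentile, against 4 of the 7 heat shock members. In Flattop-positive cells 21 of the 29 had a higher and 8 a lower mean (median difference 0.18), 4 at an unadjusted p under 0.05, all higher, and 0 past the adjusted threshold. Of all genes, 13.8% had an unadjusted p under 0.05, with 8.48% higher, so 4 of 29 is near that background. Ahsa1, the activator of the HSP90 ATPase, stood at 8.11, 8.09 and 8.29 on the Flattop-positive arrays, against 5.55 and 6.97 on the Flattop-negative arrays (difference 1.897 ± 0.43, SE; adjusted p = 0.228). Fkbp4, an HSP90 co-chaperone of steroid receptors, had 8.38, 8.08 and 8.61 in Flattop-positive pools and 5.88 and 7.06 in Flattop-negative pools (difference 1.89 ± 0.39, SE; adjusted p = 0.218). Stub1, the ubiquitin ligase CHIP, had 8.35, 8.22 and 8.195 in Flattop-positive pools and 6.66 and 7.58 in Flattop-negative pools (difference 1.14 ± 0.31, SE; adjusted p = 0.262).

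The fourth gene, Dnajc7, named after its value was seen, had a difference of 1.19 ± 0.34 (SE; adjusted p = 0.275). Over the 29 genes, the groups did not overlap for 8 that were higher and 1 that was lower, against 13.7% and 21.0% of all genes. Without Flattop-negative replicate 1 the differences of Ahsa1, Stub1 and Dnajc7 shrank to 1.19, 0.68 and 0.70, and leaving out replicate 2 instead gave 2.61, 1.596 and 1.69. Without Flattop-negative replicate 2, Ahsa1, Fkbp4, Stub1, Plk3 and Map2k2 passed the adjusted threshold in limma (adjusted p from 0.041 to 0.045), where 434 genes did in all. Without Flattop-negative replicate 1 they had adjusted p from 0.096 to 0.201.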

How the data were processed

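RNA of 5 pools of sorted islet cells was extracted with the miRNeasy Micro kit with DNase, amplified (Ovation PicoSL WTA V2) and biotin-labelled (Encore), per the labels. Per the submitters' processing notes, the authors' log2 signals were produced by RMA, using version 1.3.0.187 of Expression Console. RMA is designed to equalise the arrays' distributions, but the deposited values were not fully equal. Their median over all probe sets was 4.74, 4.78 and 4.77 on the Flattop-positive arrays. On the Flattop-negative arrays it was 4.91 and 4.98, so a shift between the fractions remained. The genome build was not given in the sources used here.

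Of 35556 probe sets, 21789 carried 1 symbol in the platform annotation, 1621 several and 12146 no listed gene. The brightest probe set per gene left 19938 genes. Fractions were compared with limma 3.58.1 (R 4.3.3), group as the only term, two-sided, Benjamini-Hochberg adjusted over all genes, and tested on simulated data. Adjusted p-values are from limma. With 3 against 2 arrays, the smallest one-sided p of an exact permutation test is 0.1. Pools were grouped by their titles.

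Members and lists were chosen with earlier results of these data known. Named are all members, Cfap126, up to 3 non-overlapping genes per other pathway list by smallest p, and markers needed beside a result. Spread is the residual SD of the fit. Alternatives were a replicate block, arrays left out, normalisations, probe set rules, variance models, array weights and thresholds, and, added after seeing the data, 2 by Xist. Linear marker sums add 2 to the power of each signal.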

Additional observations from a re-analysis of the deposited data

How the results depend on the processing

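As reported and under the 16 alternatives run, 0 members passed limma's adjusted p of 0.05, and at 0.10 as reported 0 did. The number at an unadjusted p under 0.05 was 0 as reported, 0 to 6 with an array left out, 1 with eBayes trend and robust (Nr4a3), 2 with a block for the arrays with Xist above 6 (Ier3 and Gadd45g) and 5 with only the arrays under 6. Class medians were computed under all alternatives but array weights and eBayes trend and robust. They moved by less than 1 SD between pools from the reported values, and their signs turned in several. That SD (1.28 to 1.96) came from these same arrays, so it is a loose limit that does not show stability. With an array left out the class medians ran from -1.40 to 0.69 (transcription factors), -1.42 to 0.58 (phosphatases), -1.26 to 1.53 (other early genes) and -0.93 to 0.37 (heat shock genes). With arrays centred, the other early genes had 0.04.

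The sign of single members turned often, none of them called. Median differences of the members were -0.52 on repeated quantile normalisation, -0.54 after cyclic loess, -0.12 with arrays centred and -0.36 with array weights. Signs turned on repeated quantile normalisation for Jun -0.19, Junb -0.13, Nr4a1 -0.28, Ier3 -0.27, Dusp2 0.085, Zfp36 -0.14 and Dnajb1 -0.25. After cyclic loess they did for Jun -0.44, Junb -0.16, Nr4a1 -0.39, Ier3 -0.28, Dusp2 0.104, Zfp36 -0.24 and Dnajb1 -0.31. With array weights this held for Jun -0.35, Ier3 -0.21, Zfp36 -0.030 and Dnajb1 -0.095, with arrays centred for Ier2 0.050, Btg2 0.030 and Hspa8 0.067, and with the mean of a gene's probe sets for Hspa8 0.23. Both settings by Xist were chosen after seeing the data. With the Xist block the turned signs were Fos 0.37, Fosb 0.18, Ier2 0.54, Ier5 0.099, Maff 0.15, Btg2 0.401, Dusp1 0.17, Dusp4 0.17 and Gadd45a 0.18. Further such values were Tnfaip3 0.098, Arc 0.14 and Hspa8 0.101. With only the arrays under 6 they were Fosb 0.55, Fosl1 0.027, Fosl2 0.42, Egr3 0.045, Nr4a2 0.068, Ier2 0.98, Klf4 0.11, Klf10 0.33 and Btg2 0.88. Further such values were Dusp1 0.69, Dusp2 0.16, Dusp4 0.75, Dusp5 0.37, Gadd45a 0.12, Ccn1 0.060, Arc 0.62, Hspb1 1.04 and Hspa8 0.18.

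Replicate numbers are shared by the fractions. Deviations of same-numbered arrays from their group means correlated at 0.182 (replicate 1) and -0.137 (replicate 2). The deviations of the 2 negative arrays mirror each other, so these values cannot decide whether the numbers pair the pools. With the number as a replicate block, which leaves Flattop-positive replicate 3 without weight, 0 members passed and the median was -0.765. The block turned the sign of Jun -1.09, Junb -0.45, Nr4a1 -0.22, Ier3 -0.69, Gadd45g -0.030, Zfp36 -0.62, Ccn2 -0.015 and Dnajb1 -0.63.

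Leaving out an array turned the sign of 43 members at least once. The range ran for Fos from -1.44 to 1.02, Fosb from -1.85 to 1.32, Fosl1 from -2.304 to 0.23, Fosl2 from -1.76 to 0.69, Jun from -2.100 to 2.21 and Junb from -1.06 to 1.58. It ran for Jund from -0.57 to 1.58, Egr1 from -1.92 to 0.77, Egr2 from -2.68 to 0.81, Egr3 from -1.93 to 0.21, Egr4 from -0.79 to 0.17 and Atf3 from -3.64 to 0.49. It ran for Nr4a1 from -1.05 to 1.18, Nr4a2 from -0.61 to 0.17, Ier2 from -2.005 to 1.97, Ier3 from -1.05 to 1.29, Ier5 from -0.96 to 0.57 and Klf4 from -0.67 to 0.31. It ran for Klf6 from -1.94 to 0.71, Klf10 from -1.401 to 0.795, Myc from -1.65 to 0.14, Maff from -0.76 to 0.57, Btg2 from -1.69 to 1.61 and Dusp1 from -2.67 to 1.77. It ran for Dusp2 from -0.57 to 0.25, Dusp4 from -1.500 to 1.198, Dusp5 from -1.13 to 0.54, Dusp6 from -1.42 to 0.58, Gadd45a from -0.97 to 0.74 and Gadd45b from -1.25 to 3.75. It ran for Gadd45g from -1.27 to 3.81, Zfp36 from -1.54 to 2.02, Nfkbia from -0.72 to 2.48, Tnfaip3 from -0.83 to 0.36, Ccn1 from -3.91 to 1.46 and Ccn2 from -0.17 to 0.67. It ran for Arc from -2.46 to 1.598, Hspa1a from -2.91 to 0.37, Hspb1 from -1.87 to 1.15, Dnaja1 from -0.35 to 0.22, Dnajb1 from -0.93 to 1.23 and Bag3 from -0.65 to 2.15. It ran for Hspa8 from -0.37 to 0.36. Hsph1, Zfp36l1, Nr4a3 and Klf2 stayed lower throughout. The cause was not tested. The 5 arrays, and signals near the floor for 8 members, limit the precision.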

Other observations

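Genes outside the list, named after their values were seen, had the same high arrays and were among those with the widest spread between pools. Tac1, the precursor of substance P, had the widest of all genes tested, at 3.95, 3.46 and 9.55 on the Flattop-positive arrays, against 4.83 and 10.62 on the Flattop-negative arrays. Fgg, an acute-phase gene that encodes fibrinogen γ, stood at 3.49, 4.04 and 9.75 in Flattop-positive pools and 3.54 and 7.28 in Flattop-negative pools, and Lbp, which encodes lipopolysaccharide-binding protein, at 4.34, 4.695 and 9.07 in Flattop-positive pools and 4.66 and 8.54 in Flattop-negative pools. Gem, an early response GTPase that restrains calcium channels, had 7.31, 5.56 and 10.41 in Flattop-positive pools and 6.42 and 10.07 in Flattop-negative pools, and Serpina3n, a protease inhibitor of the acute phase, 6.67, 5.98 and 10.600 in Flattop-positive pools and 6.43 and 9.896 in Flattop-negative pools. Socs3, the feedback inhibitor of cytokine signalling, had 7.11, 6.74 and 9.397 in Flattop-positive pools and 4.87 and 8.93 in Flattop-negative pools. The chemokine Cxcl1 had 5.55, 5.31 and 9.36 in Flattop-positive pools and 5.64 and 8.53 in Flattop-negative pools. In these 7 genes positive replicate 3 was the highest array of its fraction and negative replicate 2 that of the other.

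Other genes with wide spread followed another order. Rmrp, the RNA of RNase MRP, stood at 11.09, 11.24 and 10.703 in Flattop-positive pools and 5.77 and 12.06 in Flattop-negative pools, with negative replicate 1 alone low. The ribosomal protein genes Rplp0 and Rplp1, also named after their values were seen, were low on that array alone too. Rplp0 read 11.41, 11.17 and 11.65 in Flattop-positive pools and 6.53 and 11.48 in Flattop-negative pools. Rplp1 had 12.66, 12.47 and 12.66 in Flattop-positive pools and 8.14 and 12.66 in Flattop-negative pools. Lgi1 went the other way and was highest in negative replicate 1, at 9.42. The low values of negative replicate 1 were thus not particular to the early genes. Trim12a stood at 6.55, 6.97 and 2.98 in Flattop-positive pools and 6.99 and 3.16 in Flattop-negative pools, so the high arrays of the early genes were its low ones.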
